A study of Caenorhabditis elegans with 2 samples.

Results

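The str genes of Caenorhabditis elegans encode candidate chemoreceptors, seven-transmembrane proteins that sit in the cilia of sensory neurons and are thought to bind odours and other chemicals. They were examined here as sites of SET-16 occupancy in L4 larvae, 48 hours old. The members were all WBcel235 protein-coding genes whose name starts with str-, which gave 193 of the 19973 protein-coding genes on the nuclear chromosomes. Of these, 157 lie on chromosome V, 27 on IV, 5 on X, 2 on III and 1 each on I and II. Membership was set by gene names alone and used no measured value, though the family was chosen with earlier results of these data known.

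The animals were of strain RW12223, in which CRISPR placed TY1, EGFP and 3xFLAG tags on the endogenous set-16 gene of chromosome III. Chromatin of whole worms, grown from L1 larvae that had been starved after bleaching, was sonicated and precipitated with an antibody against GFP. There was 1 group with 2 biological replicates, so no contrast between conditions exists, and both libraries carry the tag. A control alignment entered the authors' peak calls and was not analysed here. Whole worms were used, so a site occupied in a few neurons cannot be told apart from a weakly occupied site in many cells.

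SET-16 belongs to the MLL3/MLL4 group of enzymes, which methylate histone H3 on lysine 4, a mark of active promoters and enhancers. Most chemoreceptor genes of the worm are expressed in a few sensory neurons each, and many stand in clusters of related copies on chromosome V. Ligands have been assigned to very few of the str receptors. Their signals pass through G proteins to cyclic GMP-gated or TRPV channels, and the level of several receptor genes is known to follow feeding state and neuronal activity.

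A gene was counted when a peak summit fell between 1000 bp upstream of its start and its end. The conservative whole-series list, made by the authors from both libraries and holding 5795 peaks, was the main list. Each replicate also has a thresholded list of its own, with 5876 peaks in replicate 1 and 4377 in replicate 2, and longer ranked lists that include weaker peaks. The signal of a peak is the authors' value, its scale not given in the sources used here, and signals of different lists are not on a shared scale. Read depth is unknown, and intervals are exact 95% binomial intervals that cover counting error only. Counts of genes are given with no test, because the genes were picked as a family.

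Few str genes held a SET-16 summit. In the conservative list, 7 of 193 did (3.63%, interval 1.47 to 7.33), against 17.2% of all 19973 protein-coding genes (interval 16.7 to 17.7). The genes were str-198, str-81, str-79, str-253, str-38, str-256 and str-92. The second whole-series list, also made from both libraries, gave 8 str genes (4.15%), against 19.9% of all genes. In replicate 1 alone, 8 str genes were called (4.15%), against 17.4% of all genes. In replicate 2 alone, 5 were called (2.59%), against 14.2% of all genes. Those 5 were also called in replicate 1, against 11.9% of all genes called in both replicate lists. The other str genes, 185 in number, had no summit in any of the 4 thresholded lists. The same count over all genes was not made, so only the shares per list can be compared.

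Windows of str genes are shorter than most, with a median of 2604 bp against 3027 bp over all genes. Counted by length of DNA, the str windows cover 0.551 Mb and held 12.7 conservative summits per Mb, against 57.8 per Mb in the genome. On chromosome V, 6 of 157 str genes had a summit (3.82%, interval 1.42 to 8.13), against 12.5% of all genes of that chromosome. Off chromosome V, 1 of 36 had one (2.78%), against 18.8% of all genes there.

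The 7 peaks were of ordinary strength within the list. Their signals ran from 151 to 552 with a median of 249, against a median of 170 over all 5795 peaks, whose middle 50% ran from 112 to 310. All 7 had the highest score that occurs, 1000, as did 78.5% of all conservative peaks. Their median width was 264 bp, against 437 bp over all peaks, with a range from 188 bp at str-92 to 474 bp at str-81. In the replicate 1 list the median signal of str peaks was 140, against 99.6 over all peaks. In the replicate 2 list it was 87.9, against 94.7 over all peaks.

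**Figure D1:**
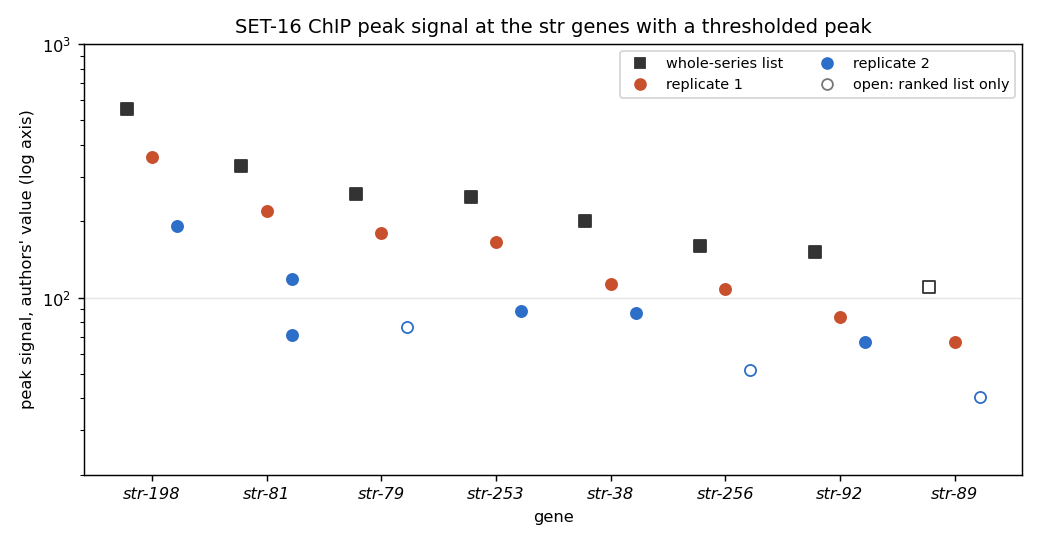
Peak signal on a log axis at the 8 str genes with a thresholded peak, ordered by the whole-series value, with the whole-series list as squares, replicate 1 as orange circles and replicate 2 as blue circles. Open symbols mark peaks that stand in a ranked list only, as for str-79, str-256 and str-89 in replicate 2. The str-81 gene has 2 summits in replicate 2. Signals of different lists are not on a shared scale, so heights can be compared only within a list.

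Of the 7 peaks, 4 lay upstream of the str gene and 3 lay in introns. In the narrower window from 1000 bp upstream of the start to 200 bp beyond it, 4 str genes were counted (2.07%), against 6.99% of all genes. The strongest was at str-198 (WBGene00006234, chromosome V 16047808 to 16049147, plus strand). Its signal was 357 in replicate 1, 192 in replicate 2 and 552 in the conservative list, rank 658 of the list. The summits of the 3 lists fell within 2 bp of each other, 556 bp upstream of the gene start. That point is in a coding exon of the next gene, ZK285.2, 379 bp from the start of ZK285.2, which is read in the same direction. On the other side of str-198 lies best-12, a gene of the bestrophin channel family, whose start is 2225 bp from the summit. Beyond ZK285.2 on the left, the nearest protein-coding gene was T10C6.15, 1312 bp from the summit. Farther out on that side, the histone gene his-1 lies within 5 kb of the summit, and his-2 lies across that limit.

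The str-38 summit also fell inside a neighbour. The gene (WBGene00006103, chromosome V 15730744 to 15732309, minus strand) had a signal of 113 in replicate 1, 86.9 in replicate 2 and 201 in the conservative list. Its summit lay 901 bp upstream, in a coding exon of T23D5.3, 458 bp from the start of that gene. The str gene str-27 stands on the far side of T23D5.3, 813 bp from the summit, and its window held none of these summits. Where summits inside another protein-coding gene were not counted, 5 str genes remained, against 15% of all genes, a count chosen after seeing the data.

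At str-253 and str-92 the summits lay in intergenic DNA. The str-253 peak (WBGene00006279, chromosome V 2252772 to 2254603, minus strand) had a signal of 166 in replicate 1, 88.9 in replicate 2 and 249 in the conservative list. Its summit stood between divergent genes, 307 bp upstream of str-253 and 623 bp upstream of F41B5.1, so it falls in both windows. The cytochrome P450 gene cyp-33C7 lies beyond the other end of str-253. The str-92 peak (WBGene00006150, chromosome V 17674946 to 17676653, minus strand) had a signal of 83.7 in replicate 1, 66.5 in replicate 2 and 151 in the conservative list, the lowest of the 7. Its summit lay 631 bp upstream, 1074 bp from a pseudogene and 3333 bp from the nearest protein-coding gene on that side, F59A1.15.

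The str-92 gene stands in a row with str-93 and str-89. At str-89 (WBGene00006148, chromosome V 17668831 to 17671330, plus strand) the peak lay just outside the conservative list. Its signal was 66.7 in replicate 1, where it was called, and 40.7 in replicate 2, where it stood in the ranked list only. In the ranked list behind the conservative one it had a signal of 110 and a score of 789, below the lowest called score of 830. In the second whole-series list it was called. The summit lay 377 bp upstream of str-89 and 678 bp upstream of the divergent gene F59A1.12, and 22 bp from a pseudogene. Between str-89 and str-92, the upstream window of str-93 held a ranked summit of score 168 whose signal was 37.5.

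The 3 intronic peaks were at str-81, str-79 and str-256. The str-79 gene, on X (WBGene00006139, 1969875 to 1972703, plus strand), had a signal of 179 in replicate 1, where it was called, 76.3 in replicate 2, where its score of 768 kept it in the ranked list, and 256 in the conservative list. The summit lay 1968 bp downstream of the gene start. A further ranked summit in the same gene, 747 bp downstream of the start, had a signal of 74 and a score of 785. The nearest protein-coding genes were F52D2.5, 1668 bp from the summit, and F52D2.7, 5655 bp away.

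At str-256 (WBGene00006282, chromosome V 499770 to 501330, minus strand) the signal was 108 in replicate 1, where it was called, 52 in replicate 2, in the ranked list only, and 160 in the conservative list. Its summit lay 589 bp downstream of the start. The neighbours T01G6.1 and T01G6.10 were 1681 and 1401 bp from it. Both str-79 and str-256 are therefore calls of replicate 1 and of the lists made from both libraries.

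The str-81 call depends on how the gene is drawn. A long transcript of str-81 (WBGene00006140, chromosome V 19225521 to 19251083, minus strand) spans 25541 bp, with 5 protein-coding genes inside it, among them the F-box genes fbxb-1, fbxb-2, fbxb-115 and fbxb-116. The other transcript spans 1355 bp, and the summit lay 2431 bp upstream of its start. With windows on the shortest transcript of each gene, an alternative chosen after seeing the data, str-81 was not counted and 6 str genes remained, against 15.1% of all genes. The signal was 219 in replicate 1 and 330 in the conservative list. Replicate 2 had 2 summits there, of 118 and 71.4, which lay 149 and 55 bp from the conservative one. The nearest protein-coding gene was sqst-3, also inside the long transcript, whose start lay 1476 bp away, and a pseudogene lay 482 bp away.

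**Figure D2:**
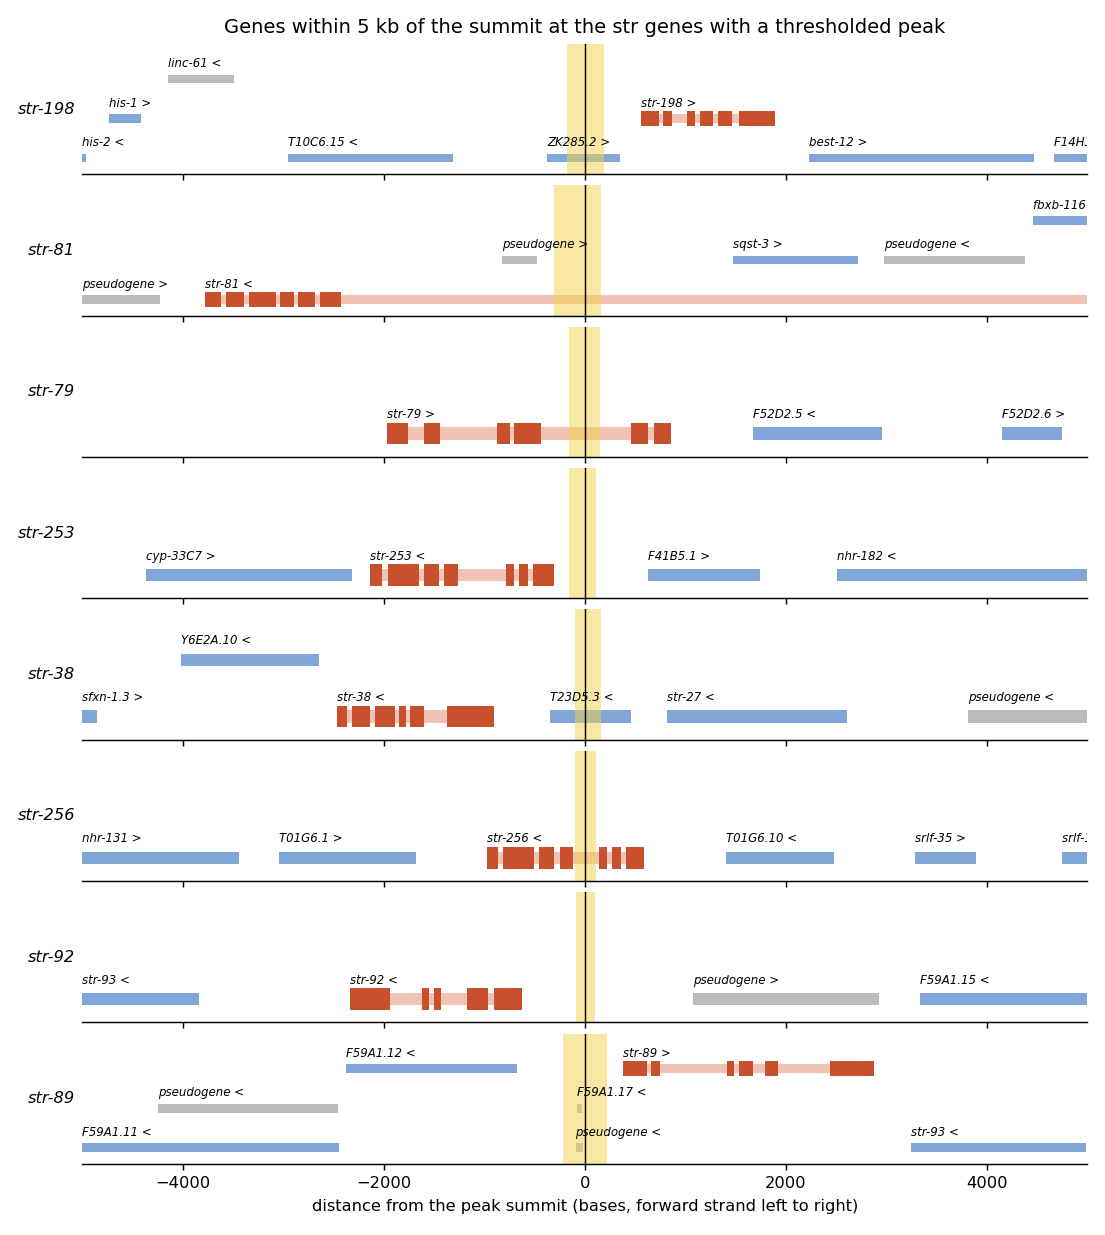
Genes within 5 kb of the conservative (for str-89, ranked) summit at the 8 str genes, with distance from the summit in bases on the horizontal axis; yellow marks the peak interval, orange the str exons, blue other protein-coding genes, grey noncoding genes and pseudogenes, and > or < the strand. The summit falls in ZK285.2 at str-198 and T23D5.3 at str-38, in introns at str-81, str-79 and str-256, and between genes elsewhere.

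The DNA under these peaks was of several kinds. Shown here are 300 bases around the summits of the 4 peaks of highest signal, from the RefSeq sequence of WBcel235 on the forward strand, with the central 100 bases in capitals. They span chrV:16047102-16047401 for str-198, chrV:19229156-19229455 for str-81, chrX:1971693-1971992 for str-79 and chrV:2254760-2255059 for str-253.
str-198: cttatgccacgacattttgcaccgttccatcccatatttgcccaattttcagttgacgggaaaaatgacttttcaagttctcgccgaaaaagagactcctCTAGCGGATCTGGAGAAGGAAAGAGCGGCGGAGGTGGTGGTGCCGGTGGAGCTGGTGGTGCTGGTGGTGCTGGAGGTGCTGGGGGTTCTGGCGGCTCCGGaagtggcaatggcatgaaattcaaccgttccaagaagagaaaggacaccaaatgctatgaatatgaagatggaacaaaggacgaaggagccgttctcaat
str-81: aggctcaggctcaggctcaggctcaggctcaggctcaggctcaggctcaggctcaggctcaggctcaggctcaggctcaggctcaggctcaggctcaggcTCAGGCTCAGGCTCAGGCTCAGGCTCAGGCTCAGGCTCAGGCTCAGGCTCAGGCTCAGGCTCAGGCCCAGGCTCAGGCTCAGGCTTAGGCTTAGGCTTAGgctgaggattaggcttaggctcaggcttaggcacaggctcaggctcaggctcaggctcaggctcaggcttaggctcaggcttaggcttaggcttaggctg
str-79: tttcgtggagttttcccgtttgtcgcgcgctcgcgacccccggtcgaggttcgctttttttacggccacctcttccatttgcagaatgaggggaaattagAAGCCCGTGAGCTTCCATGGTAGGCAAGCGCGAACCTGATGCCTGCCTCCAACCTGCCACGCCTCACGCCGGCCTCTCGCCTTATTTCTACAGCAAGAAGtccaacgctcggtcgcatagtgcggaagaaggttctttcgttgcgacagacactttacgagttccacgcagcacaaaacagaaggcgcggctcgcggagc
str-253: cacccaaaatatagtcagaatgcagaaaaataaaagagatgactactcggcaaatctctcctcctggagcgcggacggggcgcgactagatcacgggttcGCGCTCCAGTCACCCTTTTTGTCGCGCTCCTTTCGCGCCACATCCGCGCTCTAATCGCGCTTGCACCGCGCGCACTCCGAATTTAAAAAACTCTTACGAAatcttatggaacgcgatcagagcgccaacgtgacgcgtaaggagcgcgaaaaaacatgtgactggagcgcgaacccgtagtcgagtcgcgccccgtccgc

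The str-81 sequence is a run of hexamers. It holds TCAGGC, on either strand, 36 times, and TTAGGC, the unit of the worm telomere repeat, 10 times, and neither count was exceeded at any of the 5795 summits. Of its bases, 94.8% matched the base 12 positions before, also the highest value in the list, whose median for the best period of 2 to 12 bases was 34.4%. All of it is soft-masked as repeat in the reference, and 12.2% of its 31-base words occur once in the genome. The median over all peaks was 100%. How the authors placed reads from repeats is not stated in the sources used, and the part of repeats in this call was not tested.

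The str-79 and str-253 sequences held 30 and 38 CG dinucleotides, against a median of 19 over all summits. The count was 20 at str-256, 16 at str-38, 14 at str-198, 11 at str-92 and 0 at str-81. The str-253 sequence held GCGC 12 times, against a median of 1. Both the str-79 and the str-253 sequences belong to sequence found elsewhere in the genome. A blastn search for matches of at least 100 bases and 70% identity gave 49 other sites for str-79 and 29 for str-253, with best identities of 94.5% and 95.4%. The same search gave 83 other sites for str-256 and 227 for str-92. Over all summits 64.9% had no such site. The str-198 sequence, in the exon of ZK285.2, had 1 and the str-38 sequence had 0. The search masks simple repeats, so its count of 0 for str-81 says nothing.

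In the str-198 sequence 68% of the capital bases were G or C, against 51% over the 300 bases. The hexamer GAGAGA, searched with its reverse complement TCTCTC, lay within 150 bp of the str-253 and str-38 summits, 2 of 7, and of 30.1% of all summits. The E-box CAGCTG, its own reverse complement, lay at str-38 alone, 1 of 7, and at 15.5% of all summits. CACGTG lay at 0 of 7 and at 8.66% of all. A match is a description of the letters in the window only.

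GC-rich stretches were fewer in str windows. The highest GC content of any 200 bases in the window had a median of 44% in str genes, against 49% over all genes. Windows that reached 50% were found for 31 str genes (16.1%), against 44.9% of all genes. Every called str gene was among those 31: none of the 162 with a lower maximum held a summit. Across all genes, 0.133% of those with a maximum of 40 to 45% held a summit and 1.3% of those at 45 to 50%.

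Within GC classes the str shares were lower than the shares of all genes or near them. At a maximum of 55% or more, 6 of 14 str genes held a summit (42.9%, interval 17.7 to 71.1), against 71.8% of all 3654 genes of that class. At 50 to 55% it was 1 of 17 (5.88%, interval 0.149 to 28.7), against 13.5% of all. Counted in fixed tiles of 200 bp with 50% GC or more, 7 of 29 tiles in str windows held a summit (24.1%, interval 10.3 to 43.5), against 27.6% of such tiles in the genome. Such tiles made up 1.05% of str DNA, against 3.09% of the genome. Around the 7 summits themselves GC content ran from 53.7 to 63.7% within 100 bp, with a median of 54.7%, as over all peaks. GC content thus moved with the low number of calls, and its part in that number was not tested.

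The 8 str genes with a maximum of 55% or more and no conservative summit were str-13, str-16, str-33, str-39, str-68, str-119, str-148 and str-260. They were listed after their values were seen. Among them str-39 alone had a summit in the ranked list behind the conservative one, and the others lay 5497 to 82702 bp from the nearest conservative summit.

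**Figure D3:**
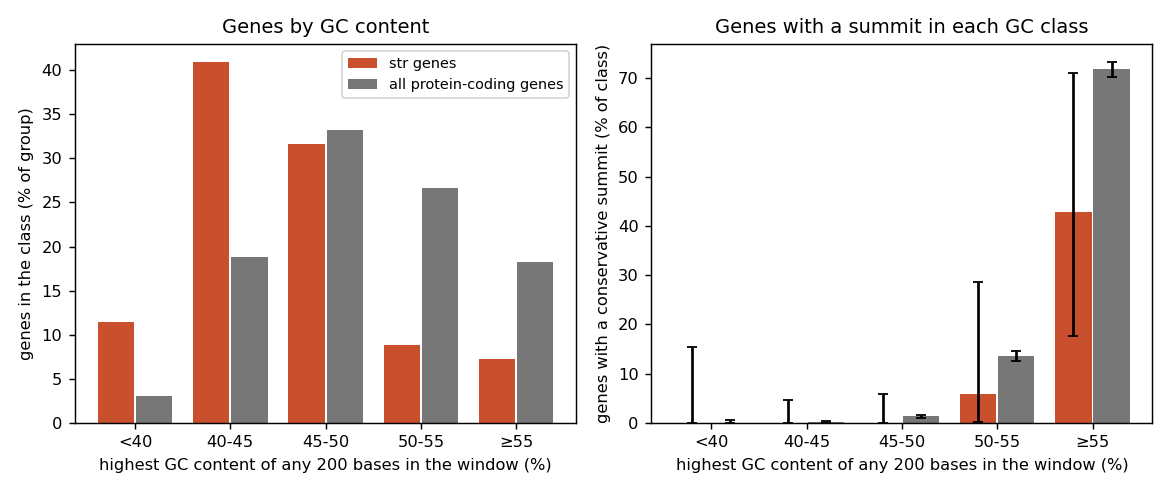
Left, share of str genes (orange) and of all protein-coding genes (grey) by the highest GC content of any 200 bases in the window; right, the percentage of each class with a conservative summit, with exact 95% intervals as bars. The str genes crowd into the classes under 50%, where almost no gene of either group is called.

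Weak peaks were also few. In the ranked list behind the conservative one, 18 str genes held a summit (9.33%, interval 5.62 to 14.3), against 41.6% of all genes. The second ranked list also gave 18, against 43.4% of all genes. Replicate 1 gave 17 (8.81%), against 43.9% of all genes. Replicate 2 gave 22 (11.4%), against 46.6% of all genes. Over the 4 ranked lists together, 167 str genes had no summit at all, a count not made for all genes. The strongest signal per gene had a median of 41.9 over the 18 str genes, against 72 over the 8300 genes with a ranked summit. After the 8 genes above came str-39, with a signal of 42.6 at 284 bp upstream, str-77 at 41.2 and str-185 at 40.9, both in introns. Behind str-93 were str-71 at 25.3, str-30 at 22.6, str-121 at 21.3 and str-230 at 16.4. Their scores ran from 88 to 404, far under the called limit of 830.

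Of the str genes, 5 were looked up singly: str-1, a marker of the AWB olfactory neurons, str-2, switched on in the AWC neuron of one side of the head, str-3, a marker of the ASI neurons, str-217, needed in ADL neurons for sensitivity to the repellent DEET, and str-44. None of the 5 held a summit in any of the 4 ranked lists, as was so for 167 of the 193 str genes. The nearest conservative summit lay 21437 bp from the window of str-1, 53238 bp from str-2, 15443 bp from str-3, 6359 bp from str-217 and 24835 bp from str-44. Their maximum GC content was 35.5% at str-1, 39% at str-2, 42.5% at str-3, 46.5% at str-217 and 38.5% at str-44. Over the 186 str genes with no conservative summit the median distance was 20804 bp.

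The neighbours of str genes were counted in the same way. Of the 193, 99 (51.3%) have another str gene as a direct neighbour and 129 (66.8%) a chemoreceptor gene of any class. The 242 other protein-coding genes that directly border a str gene held a conservative summit in 23 cases (9.5%, interval 6.12 to 13.9), against 17.2% of all genes. On chromosome V it was 19 of 201 (9.45%, interval 5.79 to 14.4), and the 12.5% of all genes of that chromosome lies within this interval. Of the 242, 45 (18.6%) are chemoreceptor genes of other classes, and without these it was 21 of 197 (10.7%, interval 6.72 to 15.8). Among the 23 were ZK285.2, T23D5.3 and F41B5.1, whose windows share their summits with str-198, str-38 and str-253.

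The str genes were also set beside the other chemoreceptor classes. In the conservative list the str class counted 7 of 193, against 51 of 1106 (4.61%, interval 3.45 to 6.02) over 19 other classes pooled. In the ranked list behind it, 9.33% of str genes held a summit (interval 5.62 to 14.3), against 15% of the others. The median of the highest GC content was 44% in the str class and 45% in the others, and 16.1% of str genes and 24.2% of the others reached 50%. Of the 18 other classes with 10 genes or more, 7 had a higher share than str and 5 had no called gene. The sri class had the highest, 9 of 61 (14.8%, interval 6.98 to 26.2), and its median for the highest GC content was 49.5%. In the srh class it was 13 of 220 (5.91%, interval 3.18 to 9.89). The srd class had 0 of 67 (interval 0 to 5.36). The str interval overlaps that of each of the others, though only narrowly that of sri. Overlap of intervals does not show that classes are alike, and no difference between classes was tested.

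**Figure D4:**
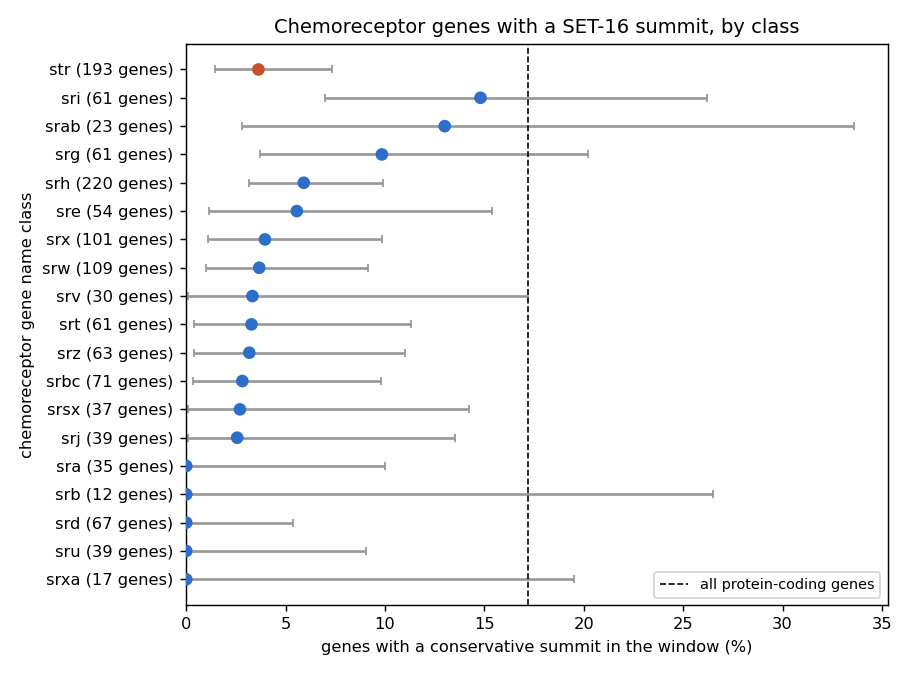
Percentage of genes with a conservative summit in the window, for the str class (orange, top) and the 18 other chemoreceptor classes with 10 genes or more (blue), with exact 95% intervals; the dashed line is the 17.2% of all protein-coding genes. The str point, 3.63%, lies among the other classes, and the sri class is highest at 14.8%.

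Genes that act with chemoreceptors were counted from a list. The list held 40 names for odour signalling, receptor trafficking and the identity of olfactory neurons, of which 39 were found by name. A conservative summit was present at 11 of 39 (28.2%, interval 15 to 44.9), against 17.2% of all genes. Of the 11, 9 were called in both replicates. Over all genes 11.9% were called in both replicate lists, and the share among genes with a conservative summit was not counted. The genes of the chemosensory list are longer, with a median window of 5601 bp, and their highest GC content had a median of 49.5%. All 11 fell among the 24 list members in the longest of 4 equal classes of window length (45.8%, interval 25.6 to 67.2), against 32.1% of all genes of that class, a share within the interval. The strongest were egl-30, the Gq alpha subunit, with a signal of 2595, and kin-29, a salt-inducible kinase known to regulate chemoreceptor gene expression, with a signal of 639 at a summit 167 bp upstream of its start. Then came egl-4, the cyclic GMP-dependent protein kinase of olfactory adaptation (467), unc-43, the calcium and calmodulin-dependent kinase II (369), goa-1, the Go alpha subunit (272), and tax-6, calcineurin A (228).

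Of the list, 28 of 39 genes had no conservative summit, and a few of them are named here. No conservative summit was called at odr-10, the diacetyl receptor gene and a relative of the str family, nor at odr-4 and odr-8, which help carry receptors to the cilia. The same held for G alpha genes other than egl-30 and goa-1, namely odr-3, gpa-2, gpa-3, gpa-5, gpa-6 and gpa-13, for the cyclic GMP-gated channel genes tax-2 and tax-4, and for the guanylate cyclase genes odr-1 and daf-11. The TRPV channel gene osm-9 had a summit with a signal of 201, and its partner ocr-2 had none. These genes without a peak, and osm-9, were named after their values were seen. The maximum GC content in the window was 44% at odr-10 and 60.5% at osm-9.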

How the data were processed

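SET-16 was profiled by ChIP-seq in 2 replicates of 1 group. The authors' deposited lists, on ce11, give for each peak an interval, a summit, a signal of unstated scale and a score of at most 1000 in lists named for the irreproducible discovery rate. Per the deposited readme, their sources were alignments of each library plus a control file. For aligner, peak caller and versions, none is named in the sources used. Replicate lists come from 1 library each and whole-series lists from both. Each whole-series ranked list was tied to its thresholded list by identical peaks and scores (5795 of 5795 and 6905 of 6905).

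Genes came from Ensembl release 115 and sequence from RefSeq, both WBcel235, the assembly of ce11. All peaks lay within its chromosomes. Windows, counts, exact binomial intervals, GC content (200 bases, every 25) and 31-base words were computed with Python 3.11.15, numpy 2.4.6, pandas 2.3.3 and scipy 1.17.1, and matches elsewhere with blastn 2.17.0. Window counting was tested on simulated summits. No test was run, because there is 1 group and the genes form a family. The str genes, the other lists and the rules were chosen with earlier results of these data known.

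The genes named are every str gene with a summit in the conservative or a replicate thresholded list, up to 8 more with the strongest ranked summits, 5 with known neurons or roles, the neighbours of called genes, and the 6 strongest members of the chemosensory list. Some other names are marked as chosen after their values were seen. Further names, such as other genes near a summit and single chemoreceptor classes, carry no such mark and were not set by this rule. Replicates are separate biosamples, per the labels. Alternatives were other lists, windows and overlap rules.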

Additional observations from a re-analysis of the deposited data

How the results depend on the processing

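No paired analysis was possible because both libraries belong to the same group. Of 62 alternative values, 52 stayed the same, 6 moved, 2 calls were gained and 2 lost. The same meant an unchanged call or a count within 1.5 times. For a median signal it meant closer than the standard deviation of the 2 replicate-list medians. That signal rule mostly sets lists without a shared scale side by side, so its labels say little. The count of 7 str genes became 3 for gene bodies alone, against 13% of all genes, and 4 in the narrower start window, against 6.99%. It was 5 without replicate 1 and 8 without replicate 2, against 14.2% and 17.4% of all genes. With 2000 bp upstream it was 7, against 20.5% of all genes. With overlap of intervals in place of summits it was also 7, against 18.1% of all genes for an overlap of 1 base. The count over all genes, 3433, became 2044 for the stronger part of the peaks, those of highest signal, where 5 str genes remained, and 1397 in the start window. The median signal of the str peaks was 249 in the conservative list, 140 in the replicate 1 list and 87.9 in the replicate 2 list. Over all peaks the medians of these lists were 170, 99.6 and 94.7. The lists share no scale, so these medians cannot be compared between lists, and why they differ was not tested. Without replicate 1, str-79 and str-256 were not called, and str-89 was called without replicate 2 and in the second list. With 7 called genes the intervals are wide, and depth is unknown.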

Other observations

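The str-245 gene, the only str gene on chromosome I, lies inside the span of aex-5, a proprotein convertase gene, and next to the myosin gene unc-54, both of which held a conservative summit. It was not itself among the 7 called str genes. Also bordering str genes with a conservative summit of their own were acr-23, of the acetylcholine receptor family, and fat-5, a fatty acid desaturase gene. So were twk-33, a potassium channel gene, tam-1 and sti-1, a co-chaperone gene. These were named after their values were seen.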
